A study of Mus musculus with 2 samples.

Results

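A set of 10 regulators of macrophage survival and apoptosis was followed in ATAC-seq peak lists of mouse bone marrow-derived macrophages (BMDMs). The genes were Birc2, Birc3, Cflar, Bcl2, Bcl2l1, Bcl2l11, Mcl1, Traf1, Gadd45b and Ripk1, out of 21883 protein-coding genes with a RefSeq entry. A peak belonged to them when the gene end nearest to its summit, within 100 kb on mm10, was that of a member. By this rule 57 of 114785 peaks were theirs, 33 of 37725 in the R848 list and 24 of 77060 in the untreated list. The R848 group was 1 library of wild-type BMDMs given 100 ng/ml of R848 (resiquimod), a small-molecule agonist of Toll-like receptor 7, for 2 h. The untreated group was 1 library of wild-type BMDMs taken at 0 h. Both had been grown out of bone marrow with 20 ng/ml of the growth factor M-CSF, and their peaks had been called separately. ATAC-seq marks open DNA through the Tn5 transposase, which cuts it and adds sequencing adapters, and a peak is a site where such cuts pile up. With 1 library per group no difference has a replicate check, so the values are set side by side and no test is given.

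The products of these genes act at the mitochondrion and at cell surface receptors. At the mitochondrion, the anti-apoptotic proteins encoded by Bcl2, Bcl2l1 (BCL-XL) and Mcl1 bind pro-apoptotic partners such as BIM, the product of Bcl2l11, and so hold back release of cytochrome c. Downstream of TNF receptors, RIPK1, TRAF1 and the ubiquitin ligases cIAP1 (Birc2) and cIAP2 (Birc3) act in signalling to NF-kB, while c-FLIP (Cflar) restrains caspase 8. Several of these genes, Birc3, Traf1, Cflar and Gadd45b among them, are textbook NF-kB targets.

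Promoter sequences are shown for 5 of the 7 genes with a peak over a listed promoter window, covering the highest ratio of R848 to untreated tags at a start site (Birc3), its neighbour Birc2, a narrow NF-kB match inside both peaks (Mcl1), a level peak (Bcl2l11) and the lowest fold ratio (Gadd45b). They come from the RefSeq promoter table (GRCm38.p6), run 5′ to 3′ on the strand of the gene, and span 250 bases before to 50 bases after the listed start. Capitals mark matches on either strand to a loose NF-kB pattern (GGG, any 5 bases, CC) or to the cAMP response element TGACGTCA.
Birc3, chr9:7873121-7873420, minus strand: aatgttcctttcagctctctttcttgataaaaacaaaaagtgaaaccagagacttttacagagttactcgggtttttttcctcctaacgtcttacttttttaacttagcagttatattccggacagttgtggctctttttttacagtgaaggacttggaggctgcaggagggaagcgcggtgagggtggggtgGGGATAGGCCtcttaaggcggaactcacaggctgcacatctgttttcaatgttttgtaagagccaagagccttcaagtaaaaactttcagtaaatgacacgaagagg
Birc2, chr9:7837008-7837307, minus strand: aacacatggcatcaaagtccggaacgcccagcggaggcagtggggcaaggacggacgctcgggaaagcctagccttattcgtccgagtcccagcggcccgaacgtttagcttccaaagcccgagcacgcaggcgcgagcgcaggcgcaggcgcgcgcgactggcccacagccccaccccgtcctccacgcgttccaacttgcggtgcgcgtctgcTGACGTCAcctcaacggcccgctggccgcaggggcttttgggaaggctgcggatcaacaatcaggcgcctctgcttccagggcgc
Mcl1, chr3:95658471-95658770, plus strand: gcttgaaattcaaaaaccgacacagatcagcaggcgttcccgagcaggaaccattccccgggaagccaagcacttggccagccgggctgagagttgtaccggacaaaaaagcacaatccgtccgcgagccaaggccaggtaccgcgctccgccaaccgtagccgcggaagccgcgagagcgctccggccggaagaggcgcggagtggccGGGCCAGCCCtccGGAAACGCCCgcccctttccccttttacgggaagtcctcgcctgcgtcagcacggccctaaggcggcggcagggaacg
Bcl2l11, chr2:128125788-128126087, plus strand: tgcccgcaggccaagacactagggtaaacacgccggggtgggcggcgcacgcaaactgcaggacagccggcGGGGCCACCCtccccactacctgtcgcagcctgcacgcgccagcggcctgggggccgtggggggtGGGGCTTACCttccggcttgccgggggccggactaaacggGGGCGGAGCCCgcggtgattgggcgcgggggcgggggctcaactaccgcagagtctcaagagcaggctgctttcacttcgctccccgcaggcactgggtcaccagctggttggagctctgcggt
Gadd45b, chr10:80929841-80930140, plus strand: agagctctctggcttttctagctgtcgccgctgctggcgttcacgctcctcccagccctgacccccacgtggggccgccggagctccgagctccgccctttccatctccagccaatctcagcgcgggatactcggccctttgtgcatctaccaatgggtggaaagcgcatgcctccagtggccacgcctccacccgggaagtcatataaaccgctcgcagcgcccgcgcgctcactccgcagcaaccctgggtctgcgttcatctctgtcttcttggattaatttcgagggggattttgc

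Depth was read from the peaks themselves, because no read totals are given in the sources used here. A whole number of tags at each summit and the background around it were solved from the deposited fold enrichment and p. The genome-wide background was 1.36 tags in the R848 library and 0.968 in the untreated library, a ratio of 1.40. Member peaks held 5 to 40 tags (median 10) in the R848 list and 4 to 18 tags (median 7) in the untreated list, where all peaks had medians of 8 and 7. Their median width was 348 bp in the R848 list and 249 bp in the untreated list, against 270 and 255 bp over all peaks. A q above 0.05 was carried by 10 of the 33 R848 and 3 of the 24 untreated member peaks (30.3% and 12.5%), against 48.2% of all R848 and 36.5% of all untreated peaks. Macrophage marker genes had an R848 peak at 10 of 10 and an untreated peak at 9 of 10, with 22 and 30 peaks in all, and Cd14 lacked one in the untreated list. R848 and untreated peaks lay at 2 and 3 of 6 T and NK cell markers, 3 and 1 of 4 B cell markers, 2 and 3 of 4 neutrophil markers, and 1 and 1 of 3 erythroid markers. Cd3e, Cd8a, Ncr1, Elane and Hbb-bs had no peak in either list. The part of other cells in the member peaks was not tested.

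All 10 genes had at least 1 peak in each list, where 63.1% of protein-coding genes had an R848 peak and 69.5% an untreated peak, and most of the untreated sites were also in the R848 list. Of the 33 R848 member peaks, 17 overlapped an untreated peak by at least 1 bp (shared peaks) and 16 did not (R848-only peaks). The R848-only share was 48.5%, against 69.0% of all R848 peaks and 66.9% of those assigned to any gene. Of the 24 untreated member peaks, 7 were untreated-only, or 29.2%, against 84.7% of all untreated peaks and 79.8% of those assigned to a gene. An R848-only peak lay at 6 of the 10 genes and at 47.2% of all protein-coding genes. An untreated-only peak lay at 4 of the 10 and at 56.9% of all. A listed promoter window lay under 7 of the 33 R848 member peaks, against 15.9% of all R848 peaks. The same held for 7 of the 24 untreated member peaks, against 5.64% of all untreated peaks. The part of position in the shared counts was not tested. In the full lists, without regard to tags or position, member peaks had counterparts in the other list more often than all peaks. Among peaks whose −log10 q reached 5 the order turned, with 7 of 9 R848 member peaks (77.8%) and 65.0% of all R848 peaks R848-only, and all 7 were sites that the full lists shared.

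**Figure D1:**
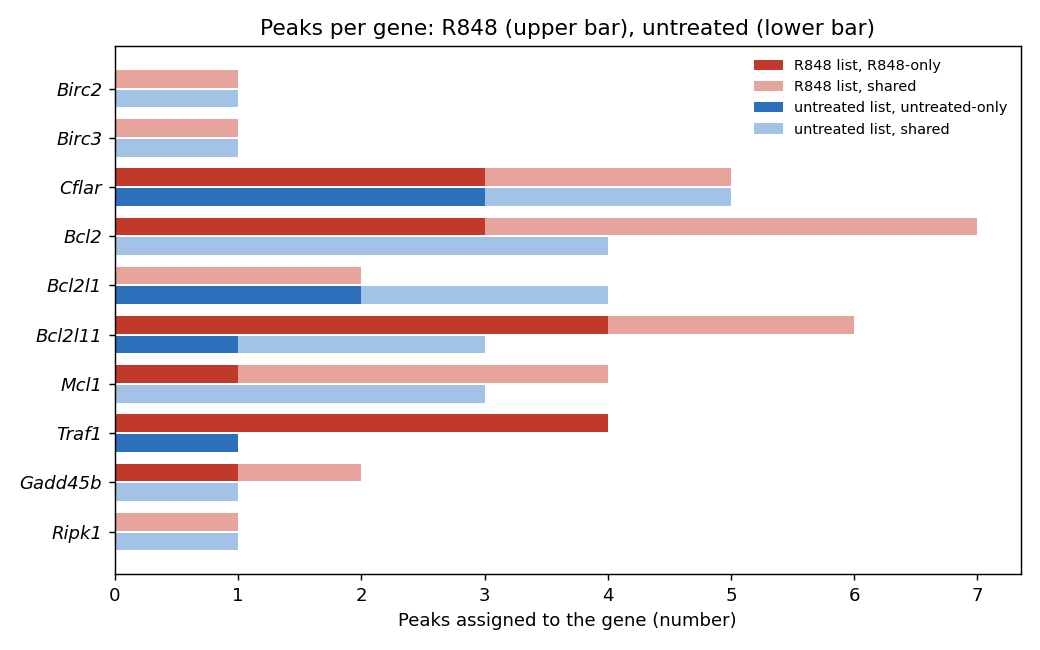
Number of peaks assigned to each gene in the R848 list (upper bar, red) and the untreated list (lower bar, blue), with peaks found in 1 list alone in the dark shade and shared peaks in the light shade. Bcl2 has the most R848 peaks (7), Traf1 has 4 R848-only peaks and no shared one, and Birc2, Birc3 and Ripk1 have 1 shared peak in each list.

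Strong peaks are shared more often than weak ones, and member counts were set beside all peaks of the same tag class. Among untreated peaks of 7 to 9 tags, 9 of 13 member peaks were shared, against 14.0% of all peaks in that class. Among those of 4 to 6 tags, 5 of 6 were shared, against 7.48% of all. Of 10 to 14 tags 1 of 3 was shared (28.0% of all), and of at least 15 tags 2 of 2 (68.4%). In the R848 list, all 9 member peaks of at least 15 tags were shared (82.9% of all such peaks), as were 2 of 8 of 10 to 14 tags (45.5%), 6 of 10 of 7 to 9 tags (20.3%) and 0 of 6 of under 7 tags (13.4%). None of the 16 R848-only member peaks held more than 12 tags.

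A peak over a listed promoter window was found for 7 of the 10 genes in the R848 list and for 6 in the untreated list, against 37.1% and 27.2% of the 17491 protein-coding genes with a promoter entry. The 6 genes with such a peak in both lists were Birc2, Bcl2l1, Bcl2l11, Mcl1, Gadd45b and Ripk1, against 24.7% of genes. Birc3 had one in the R848 list alone. Cflar, Bcl2 and Traf1 had none in either list.

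Of the 17 shared member sites, the one at Birc3 had the largest R848 over untreated ratio, by fold and by tags. Birc3 encodes cIAP2, a ubiquitin ligase that keeps TNF receptor signalling on the NF-kB branch. Its R848 peak spanned 7872738 to 7873280 on chromosome 9 and held 40 tags at a fold enrichment of 10.05, with 2.24% of all R848 peaks as strong or stronger. The overlapping untreated peak, 7872901 to 7873100, held 7 tags at a fold of 4.06, a fold reached by 30.4% of untreated peaks. The summits lay 147 bp apart, so the tags were read at different positions. The local background was 3.08 tags in the R848 library and 0.968 in the untreated library, and the ratio of the folds was 2.47. Divided by the genome-wide background of each library, the tags were 29.4 in R848 cells and 7.23 in untreated cells, a ratio of 4.07 (exact 95% interval 1.80 to 10.8). Such intervals cover counting error only and take no account of the choice of the summit as the highest point. The Birc3 interval also takes no account of the choice of this site as the largest ratio of the 17. A tag ratio as high was seen in 0.103% of the 11633 shared pairs with tags in both libraries. The R848 peak covered 160 bases of the promoter window and the single Birc3 match to the loose NF-kB pattern, which begins at position -57 from the start. The untreated peak lay downstream of the start and reached neither.

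Birc2, the neighbour of Birc3 on chromosome 9, encodes cIAP1. Its shared peak held 20 tags in R848 cells (7836618 to 7837275) and 7 in untreated cells (7836916 to 7837466), with folds of 7.72 and 4.06. The summits lay 14 bp apart, at 11 and 25 bp before the listed start. The tag ratio over background was 2.04 (0.827 to 5.70), an interval that includes 1. Its TGACGTCA match, at position -35, lay inside the peak of both lists. No R848-only and no untreated-only peak was assigned to either gene.

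**Figure D2:**
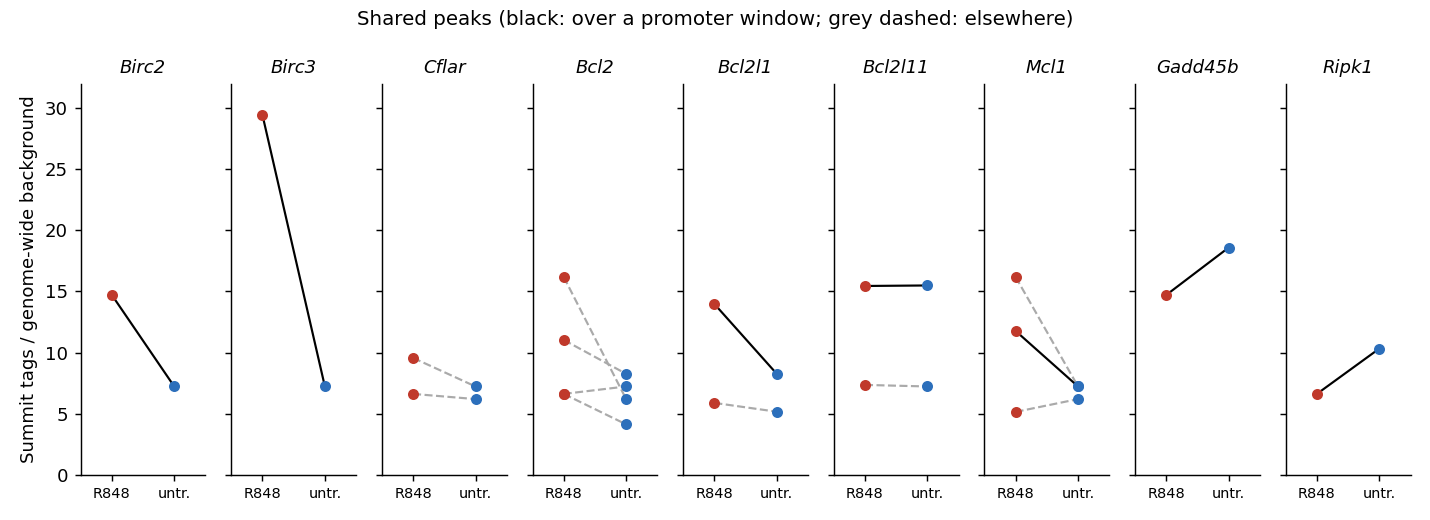
Summit tags divided by the genome-wide background of the library for the 17 shared peaks, R848 left and untreated right in each gene, joined by a black line over a promoter window and a grey dashed line elsewhere. Birc3 stands at 29.4 against 7.23, Bcl2l11 at its promoter stands at 15.4 against 15.5, and Gadd45b and Ripk1 are lower in R848 cells.

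The BCL-2 family survival genes differed among themselves in where their peaks lay. Mcl1 encodes a short-lived anti-apoptotic protein. Its promoter peak held 16 tags in R848 cells (95658555 to 95659053 on chromosome 3) and 7 in untreated cells (95658602 to 95658801), a ratio over background of 1.63 (0.634 to 4.68). A site 8046 bp before the Mcl1 start, outside any gene, was stronger in the R848 list, with 22 tags at a fold of 6.57, against 7 tags at a fold of 3.85 in the untreated list. Its tag ratio was 2.24 (0.924 to 6.20). Another shared site, inside the gene, held 7 and 6 tags, with summits 247 bp apart. The R848-only peak of Mcl1, 13302 bp before the start, held 6 tags at a q of 0.260.

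Bcl2l1 encodes BCL-XL and has 3 listed starts. The peak at the most upstream of them held 19 tags in R848 cells (152831200 to 152831812 on chromosome 2) and 8 in untreated cells (152831250 to 152831823), with folds of 7.46 and 4.33 and a tag ratio of 1.69 (0.707 to 4.47). At the next start downstream, the untreated list alone had a peak, of 7 tags (152830639 to 152830838). Another untreated-only peak of 7 tags lay 4346 bp before the upstream start. A site inside the gene held 8 tags in R848 cells and 5 in untreated cells. Bcl2l1 had no R848-only peak.

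Bcl2, the founding survival gene of the family, had 7 R848 peaks and 4 untreated peaks, the latter all shared. As many R848 peaks were found at 1.59% of protein-coding genes, a share that takes no account of gene length. Bcl2 spans 176115 bp. Its strongest site lay inside the gene, 86907 bp downstream of the start (106627206 to 106627669 on chromosome 1), with 22 tags at a fold of 7.93 in R848 cells and 6 tags at a fold of 3.56 in untreated cells. The tag ratio was 2.61 (1.03 to 7.87). Another site inside the gene, at 132318 bp from the start, held 15 tags in R848 cells and 8 in untreated cells, and one at 93897 bp held 9 and 4. The shared site 64672 bp beyond the far end of the gene held 9 tags in R848 cells and 7 in untreated cells, which over background is 6.62 and 7.23. The R848-only peaks held 12 tags at 26301 bp beyond the far end, 7 tags at 174 bp downstream of the start, and 6 tags at 18422 bp inside the gene. At the depth of the untreated library, equal accessibility would give 8.55, 4.99 and 4.27 tags, and the weakest untreated peak called held 4. The R848-only peaks of 7 and 6 tags had q values of 0.0672 and 0.260. The part of depth in the missing untreated peaks was not tested. The Bcl2 promoter window had no peak in either list, and the R848-only peak nearest to it stopped short of it.

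Bcl2l11 encodes BIM, a BH3-only protein that promotes apoptosis, and the peak at its upstream listed start was among the strongest member sites in both lists. It held 21 tags in R848 cells (128125629 to 128126215 on chromosome 2) and 15 in untreated cells (128125657 to 128126109), with folds of 6.88 and 6.84. Over background this was 15.4 and 15.5, a ratio of 0.997 (0.490 to 2.08). The window of its other listed start carried a peak in the untreated list alone, with 14 tags at a fold of 6.25 (128127336 to 128127631), which the nearest-end rule gives to the overlapping gene Acoxl. Upstream, inside Acoxl, R848-only peaks of 8, 11, 9 and 5 tags lay 93885, 70947, 63126 and 49404 bp from the Bcl2l11 start. The same stretch had 1 untreated-only peak of 5 tags at 67138 bp and 1 shared site at 60308 bp, with 10 tags in R848 cells and 7 in untreated cells. At least 4 R848-only peaks were found at 4.94% of protein-coding genes, a share that takes no account of the length of the stretch assigned. The R848-only peak of 5 tags had a q of 0.717, and 3 of the 4 stayed at a q of at most 0.05. None of these 4 counts for Bcl2l11 when a peak goes to the gene that holds its summit.

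**Figure D3:**
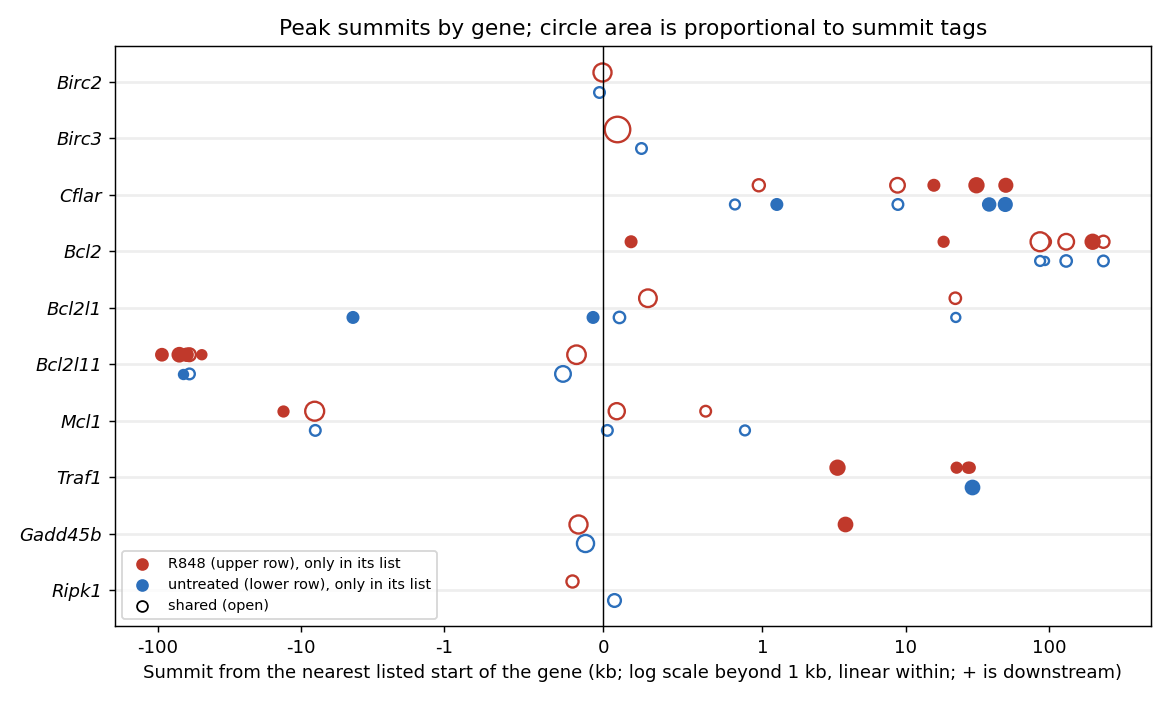
Summits of the 57 member peaks by distance from the nearest listed start of the gene in kb (log scale beyond 1 kb, linear within), with R848 peaks in the upper row and untreated peaks in the lower row of each gene. Circle area is proportional to summit tags, filled circles are in 1 list alone and open circles are shared; the largest circle is the Birc3 R848 peak of 40 tags, and the filled circles of Bcl2l11 lie far upstream of its start.

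Traf1 encodes an adaptor of TNF receptor signalling that binds cIAP proteins. None of its 4 R848 peaks overlapped an untreated peak, and 7535 of the 21883 protein-coding genes had a shared R848 peak. Its strongest R848-only peak, 34958144 to 34958757 on chromosome 2, lay inside the gene 3343 bp downstream of the start and held 12 tags at a fold of 4.71. The other 3, at 2685 to 8032 bp beyond the far end, held 6 tags each at folds of 2.55 to 2.97. The untreated-only peak lay beyond them at 8939 bp (34932752 to 34933001), with 11 tags over a local background of 2.86, a fold of 3.11. Of the 4 R848-only peaks, 1 stayed R848-only when both lists were reduced to a q of at most 0.05.

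Ripk1 encodes the kinase that can switch the TNF receptor complex from survival to death. The peak at its upstream start held 9 tags in R848 cells (34002112 to 34002344 on chromosome 13) and 10 in untreated cells (34002169 to 34002530), with folds of 4.24 and 5.24. The tag ratio over background was 0.641 (0.231 to 1.76). The summits lay 263 bp apart, at 195 bp before the listed start in R848 cells and 68 bp after it in untreated cells. The window of the downstream start carried a further R848-only peak of 9 tags (34002613 to 34002909), given by the rule to the overlapping gene Serpinb6a.

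Cflar encodes c-FLIP. It had 5 peaks in each list, of which 2 were shared, and no peak over its promoter window. Its shared site 8777 bp inside the gene held 13 tags in R848 cells and 7 in untreated cells, a ratio over background of 1.32 (0.491 to 3.92). The shared site near 1 kb from the start held 9 and 6 tags, and the peaks overlapped only at their edges, with summits 150 bp apart. The R848-only peaks held 12, 10 and 7 tags, and the untreated-only peaks held 10, 9 and 7. The R848-only peak of 7 tags had a q of 0.260. Beyond the far end of the gene, the R848-only peak of 10 tags (58761428 to 58761746 on chromosome 1) and the untreated-only peak of 10 tags (58760983 to 58761347) were neighbours that did not overlap, and with a gap of up to 500 bp allowed they counted as shared.

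Gadd45b encodes a stress-induced protein that damps JNK signalling and is induced by NF-kB. Its promoter peak held 20 tags in R848 cells (80929665 to 80930242 on chromosome 10) and 18 in untreated cells (80929764 to 80930174). The folds were 4.82 and 8.19, the lowest fold ratio of the members at 0.588, and 94.3% of the 11690 shared pairs had a higher or equal one. The local background was 3.36 tags in the R848 library and 1.32 in the untreated library. Over the genome-wide background the values were 14.7 and 18.6, a ratio of 0.791 (0.398 to 1.59). An R848-only peak of 11 tags, 1632 bp beyond the far end, stood on a local background of 3.32 at a fold of 2.78. Its q was 0.0982.

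Across the 17 shared pairs, the R848 fold was the higher in 13, against 58.0% of all pairs. Over promoter windows it was the higher in 5 of 7 member pairs (71.4%) and in 78.9% of all pairs. The median ratio of R848 over untreated fold was 1.25, against 1.07 over all 11690 pairs. Over promoter windows the median was 1.40 for 7 member pairs and 1.31 for all 3989 such pairs, and away from them it was 1.19 for 10 member pairs and 0.973 for all 7701. A ratio of at least 2 was reached by 2 of the 17, Birc3 (2.47) and the strongest Bcl2 site (2.23), against 4.48% of all pairs, and a ratio of at most 0.5 by none, against 2.90%. Birc2 was next at 1.90, and the lowest ratios were 0.588 at Gadd45b, 0.776 at the Mcl1 site inside the gene and 0.809 at Ripk1. By tags over background, 4 of 17 pairs reached 2, against 7.17% of all pairs. These were Birc3, Birc2, the upstream Mcl1 site and the same Bcl2 site. Fold values are the authors' own and are relative to the background of each library, so a ratio is best read beside those of all pairs.

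**Figure D4:**
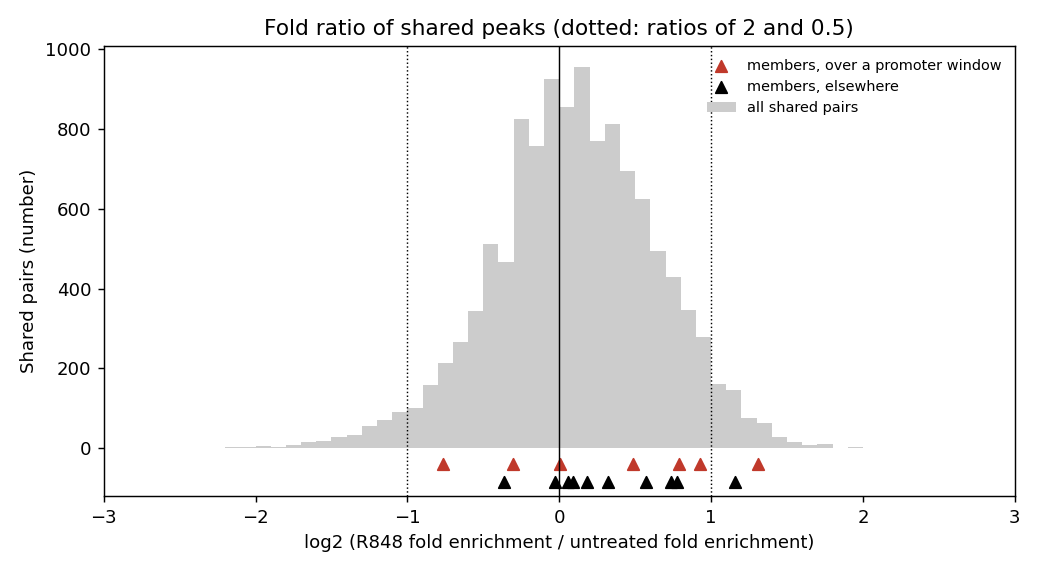
Distribution of log2 of R848 over untreated fold enrichment for all 11690 shared pairs (grey bars, number of pairs), with the 17 member pairs as triangles below, red over a promoter window and black elsewhere. The member pairs range from a ratio of 0.588 (Gadd45b) to 2.47 (Birc3), and 2 lie beyond the dotted line at a ratio of 2.

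The 15 listed promoter windows of the members were searched on both strands for a few patterns, whose occurrence is a description of the letters alone. The loose NF-kB pattern was in 8 of the 15 windows and in 57.1% of all 21262 windows. A narrower form of it (GGG, any 2 bases, TTTCC) was in 2 of 15, Mcl1 and the middle start of Bcl2l1, against 1.60% of all windows. The Mcl1 match begins at position -28, is also a match to the loose pattern, and lay inside the peak of both lists. TGACGTCA was in the Birc2 window alone, against 2.23% of all windows, and its shorter part TGACG, which overlaps it there, was in 5 of 15, against 23.6%. The interferon-response pattern (GAAA, any 2 bases, GAAA) was in 2 of 15, Cflar and the downstream start of Ripk1, against 3.35%. The AP-1 pattern TGANTCA and the ETS pattern AGGAAGT were in none of the 15, against 6.99% and 9.07%.

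Other genes of the same pathways, in lists chosen with earlier results of these data known, were counted by the same rule. An R848-only peak lay at 36 of 58 and an untreated-only peak at 34 of 58, against 47.2% and 56.9% of all protein-coding genes. The median was 1 R848-only peak per gene for these genes and for the members, against 0 for all protein-coding genes. R848-only and untreated-only peaks were found, in this order, at 11 and 9 of the 15 other BCL-2 family genes, 6 and 6 of 10 caspase and apoptosome genes, and 2 and 2 of 4 other IAP genes. They were found at 6 and 6 of 10 death receptor and adaptor genes, 8 and 8 of 14 ubiquitin and kinase genes of the TNF receptor complex, 1 and 1 of 3 necroptosis genes, and both Gadd45a and Gadd45g. The BH3-only genes Pmaip1 (NOXA) and Bmf had 5 and 4 R848-only peaks beside 2 and 4 untreated-only peaks. Bcl2a1d had 5 and 4, and is uncertain because it has near-identical paralogs. At Tnfrsf1b, which encodes TNF receptor 2, R848-only peaks numbered 4 and untreated-only peaks 3, the same numbers as at the kinase gene Tbk1. Untreated-only peaks were the more numerous at Map3k7, which encodes the kinase TAK1, with 3 R848-only and 6 untreated-only peaks, at its partner gene Tab3 on the X chromosome with 0 and 5, and at the deubiquitinase gene Tnfaip3 with 3 and 4.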

How the data were processed

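Chromatin accessibility had been measured by ATAC-seq in 1 R848 and 1 untreated BMDM library. Reads were processed with bcl2fastq 2.19, Bowtie2 2.2.6 and MACS2 2.2.7.1 on mm10, per the submitters' processing notes, which give no settings. Depth in reads, read filters, duplicate handling and insertion-site shifts are not given in the sources used here. In each deposited list the authors give a fold enrichment over the background of the same library, a −log10 p and −log10 q value, and a score. The score deposited by the authors was not used.

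Tags were recovered from (tags + 1)/(background + 1) = fold and the Poisson tail p, within 0.1% of the given −log10 p, for 99.9% of peaks in each list. The background ratio of 1.40 stands for depth on the assumption that tags were extended by the same length in each library. Summits were assigned to the nearest end of 21883 protein-coding RefSeq genes within 100 kb. The gene table has no exons, so peaks inside genes were not placed in exons or introns. A shared R848 peak was paired with its strongest untreated overlap. Tags of a pair were read at the summit of each peak. The summits lay a median of 79 bp apart in member pairs and 75 bp in all shared pairs. Overlaps (at least 1 bp) were checked with bedtools 2.31.1, with figures by matplotlib 3.10.9 and the rest by scipy 1.17.1, pandas 2.3.3, numpy 2.4.6 and Python 3.11.15. Assignment, overlap and tag recovery were tested on simulated data. No p-value was computed.

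All members were named, and for each the strongest R848-only, untreated-only and shared peak. Of the pathway lists, the 6 genes with the most R848-only and the 4 with the most untreated-only peaks were named, with ties broken by the strongest such peak. Of 5 genes with 3 R848-only peaks 1 was so named, and of 3 genes with 4 untreated-only peaks 2 were. Members and lists were chosen with earlier results of these data known. Alternatives changed the peak threshold, the overlap, the gene assignment, the list length and the strength measure.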

Additional observations from a re-analysis of the deposited data

How the results depend on the processing

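With both lists reduced to a q of at most 0.05, R848-only member peaks numbered 9 of 23 (39.1%), against 59.6% of all R848 peaks, and 33.3% of member and 83.7% of all untreated peaks were untreated-only. At a −log10 q of at least 5 there were 7 R848-only (77.8%), 0 untreated-only and 2 shared peaks in each list, and 0 shared pairs past a fold ratio of 2. At that threshold 65.0% of all R848 peaks were R848-only, so the member share was then above that of all peaks, and the Birc2, Birc3, Bcl2, Bcl2l1 and Mcl1 sites counted as R848-only because their untreated peaks were below it. With a reciprocal overlap of 0.5 of each peak, the R848-only share was 72.7% against 79.8% of all R848 peaks, with 15 untreated-only peaks (62.5%, against 90.1% of all untreated peaks), 9 shared peaks in each list and 1 pair past the ratio. The Birc3 pair was not shared under that overlap, and its R848 peak counted as R848-only. A gap of up to 500 bp left 4 untreated-only peaks. Gene ends within 20 kb gave 11 shared peaks in each list and 1 pair past the ratio. Every gene within 50 kb gave 27 R848-only and 20 untreated-only peaks. Lists of equal length gave 60.6% against 76.5% of all R848 peaks. Tags over background put 4 pairs past the ratio, and a ratio of 1.5 put 7. Of 58 comparisons of summed values with an alternative, 38 stayed within the bounds used. The bounds were a change of at most 1.5 times for counts, with any change to or from 0 outside them. For the R848-only share they were 32.5% to 64.8%, a binomial interval over member peaks used as a bound only. R848-only counts of single members moved by over 1.5 times, or to or from 0, in 26 of 80 comparisons. No paired analysis was possible because each group has 1 library, and leaving out a replicate was not possible for the same reason. Peaks of 5 to 7 tags are near the weakest called, and absence of a peak at this depth is not absence of accessibility.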
